A study of Mus musculus with 36 samples.

Results

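The half-lives described here are those of mRNAs in untreated mouse embryonic stem cells (mESCs), taken from the control condition of a SLAM-Seq experiment and set against the number of reads on each mRNA. Every mRNA of the deposited table was kept, which gave 10325 of 10325 mRNAs. The control half-lives came from 12 of the 36 libraries of the study, and the half-lives of the other two conditions, G418 and puromycin, were not used. The control cells were E14Tg2a mESCs, a line of strain 129/Ola, grown in 2i medium. They took up 100 µM 4-thiouracil for 24 h, with fresh medium every 8 h, and were then moved to medium with 10 mM uridine and no antibiotic. Cells were collected 0, 1, 2, 4, 8 and 24 h into this chase, with 2 replicates per time.

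In SLAM-Seq, 4-thiouracil is built into new RNA, and alkylation makes the labelled base pair with G during reverse transcription, so that labelled reads carry U to C conversions. During the uridine chase, new transcripts are unlabelled, and the share of converted reads on an mRNA falls as its labelled copies are destroyed. The half-life of an mRNA sets how fast its level can follow a change in transcription. In mammalian cells, mRNAs of transcription factors and other regulators are typically short-lived, while those of metabolic enzymes and structural proteins are typically long-lived.

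The table held 1 fitted half-life per mRNA with the replicates already combined, so values per library could not be shown, and no half-life or summary below carries a replicate error. Spreads below are spreads over mRNAs, which are not replicates. The identifiers are UCSC transcript names. None of them was found in the annotation tables used here, so genes, genome positions, sequences and markers of pluripotent cells were not analysed here. The second measure was the average number of reads on each mRNA. The authors describe it as the reads behind each half-life. It was read here as a mean over all 36 libraries, treated ones included, an inference drawn from averages that all become whole when multiplied by 36. It is not corrected for mRNA length, so it orders mRNAs by reads and not by copies per cell.

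Half-lives of untreated mESCs clustered within a narrow range. The median was 177 min, and 8160 mRNAs (79.0%) had a half-life within 2-fold of it. The ratio of the 75th to the 25th percentile was 2.00, and that of the 95th to the 5th was 6.68. Single values reached much further, from 19.9 min on an mRNA with 263 average reads to 3379 min, or 56.3 h, on an mRNA with 10092 average reads, a 169.5-fold range.

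The distribution had a longer tail on the side of stable mRNAs. The mean of 219 min was above the half-life of most mRNAs, since 3484 of them (33.7%) exceeded it. On the log2 scale the distribution was closer to symmetric, with a skewness of 0.32 against 4.58 in minutes, and an SD over mRNAs of 0.85. The geometric mean was 182 min. Some excess on the stable side was still present on this scale. The 99th percentile, 961 min, lay 5.43-fold above the median, whereas the 1st percentile, 44.2 min, lay 4.00-fold below it.

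**Figure D1:**
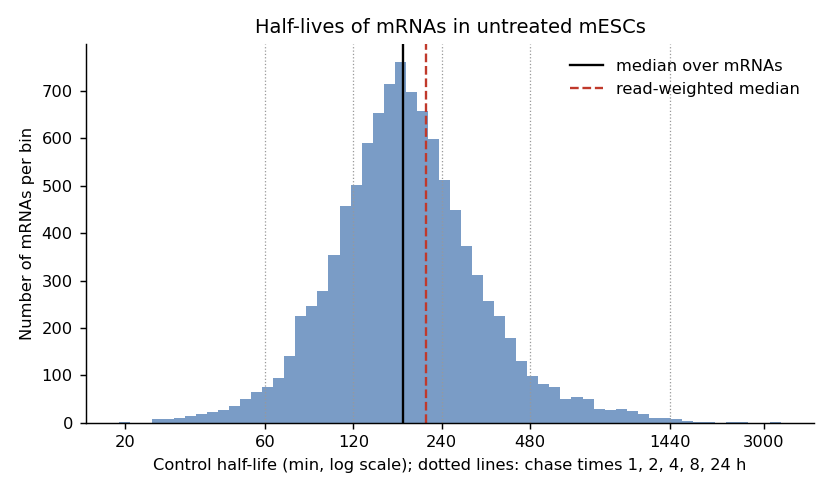
Number of mRNAs (y axis) by control half-life in minutes on a log scale (x axis), with 8 bins per doubling of half-life, over all 10325 mRNAs. The solid line marks the median over mRNAs, 177 min, and the dashed line the read-weighted median, 212 min; dotted lines mark the chase times after 0 h.

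The chase times divide the mRNAs into classes, and the middle class was the most populated. A half-life from 2 to 4 h was listed for 5204 mRNAs (50.4%), one from 4 to 8 h for 2312 mRNAs (22.4%) and one from 1 to 2 h for 1977 mRNAs (19.1%). Half-lives from 8 to 24 h were listed for 534 mRNAs (5.17%). For 278 mRNAs (2.69%) the half-life was under 1 h, which falls between the samples at 0 and 1 h. For 20 mRNAs (0.194%) it was longer than the last chase time of 24 h, so that only these values lie beyond the sampled interval.

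The classes at both ends differed in the reads behind them. The 278 mRNAs with half-lives under 1 h had a median of 316 average reads, and 44.2% of them were among the 2065 mRNAs with the fewest reads. The 20 mRNAs over 24 h had a median of 2685 average reads, with a range from 171 to 22258, and 70.0% of them were among the 2065 mRNAs with the most reads. The median over all mRNAs was 604 average reads. The median of the class under 1 h was thus below that of all mRNAs, and the median of the class over 24 h was above it.

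An mRNA is called short-lived here if its half-life was under 2 h and long-lived if it was over 8 h. By these limits 2255 mRNAs (21.8%) were short-lived, with a median half-life of 92.8 min, and 554 mRNAs (5.37%) were long-lived, with a median of 663 min. The remaining 7516 mRNAs (72.8%) had a median of 197 min. The limits are not at equal distances from the median. With limits of 2-fold on either side of it, 979 mRNAs (9.48%) were below and 1186 mRNAs (11.5%) were above.

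Short-lived mRNAs held fewer reads than their number, and long-lived mRNAs more. The short-lived mRNAs took 12.8% of all reads, 0.587 times their share of mRNAs, while the long-lived mRNAs took 15.1%, 2.82 times theirs. From the averages multiplied by 36, the 95% Wilson interval of the latter share was 15.116% to 15.122%. This interval takes every read as an independent draw and the averages as means over all 36 libraries, treated ones included. It covers counting error only, and not variation between replicates or libraries. The median of average reads was 485 in short-lived mRNAs, with quartiles of 276 and 921. In long-lived mRNAs it was 635, with quartiles of 296 and 2099, and in the mRNAs between the limits it was 649, with quartiles of 348 and 1327. A typical long-lived mRNA thus had about as many reads as an mRNA between the limits. The means, 3994 reads in long-lived mRNAs and 1403 reads between the limits, differed far more than the medians, so the large read share of the long-lived mRNAs rested on a part of them with very many reads.

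Ordering the mRNAs by half-life in 10 groups of equal size gave the same picture in finer steps. Median reads were 416 in the group with the shortest half-lives, at most 90.3 min, and 557 in the next. From the third group on, medians lay between 592 and 684 reads, and in the group with the longest half-lives, 373 min or more, the median was 594. The mean reads rose from 691 in the first of these groups to 3079 in the last, which held 21.7% of all reads. The upper quartile of reads was 790 in the first group and 1707 in the last, whereas the lower quartile was 245 in the first group, between 321 and 371 in the 8 groups after it and 287 in the last. Read numbers in the last group were therefore more spread out in both directions than in the groups before it from the second on.

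**Figure D2:**
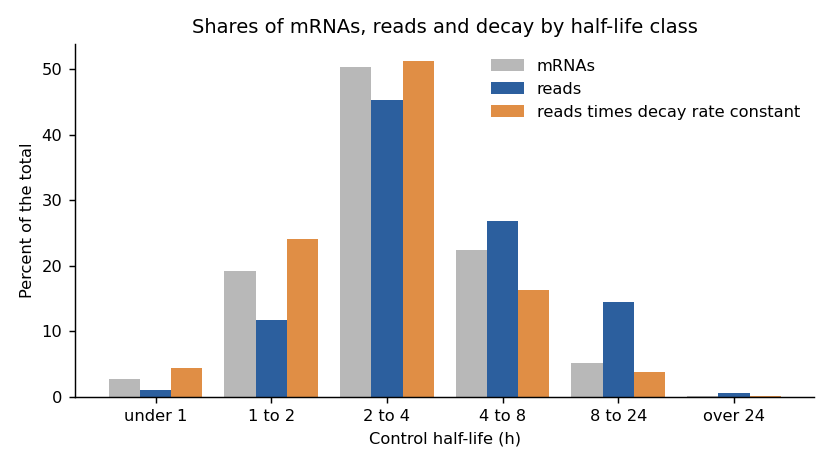
Percent of the total (y axis) held by each class of control half-life in hours (x axis), for mRNAs (grey), average reads (blue) and the product of average reads and decay rate constant (orange). The class from 8 to 24 h held 5.17% of mRNAs but 14.5% of reads, and the class from 1 to 2 h held 19.1% of mRNAs and 11.8% of reads.

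The same classes were ordered differently when reads were multiplied by the decay rate constant, which is inversely proportional to the half-life. This product shows how the loss of reads per unit of time would divide among mRNAs if every read stood for the same amount of RNA. Short-lived mRNAs made up 28.5% of it and long-lived mRNAs 3.91%. The single class from 2 to 4 h made up 51.3%. The sum of reads was concentrated on few mRNAs, with 797 of them (7.72%) holding 50% of all reads, and the sum of the product was somewhat less concentrated, with 1124 mRNAs (10.9%) holding 50%.

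4 mRNAs illustrate the ends of the distribution where reads were plentiful. They are the shortest-lived and longest-lived pairs among the 2065 mRNAs with the most reads, limited to half-lives between 1 and 24 h. The shortest-lived were uc009nwx.3, with a half-life of 60.4 min and 2110 average reads, and uc008pck.2, with a half-life of 61.4 min and 2421 average reads. The longest-lived were uc009vei.1, with 1429 min and 1883 average reads, and uc007feq.1, with 1400.5 min and 2186 average reads. By these half-lives, 50.2% of the label on uc009nwx.3 would be left at 1 h and 0.405% at 8 h, whereas uc009vei.1 would keep 79.2% at 8 h and 49.7% at 24 h.

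Across all mRNAs, half-life and read number were weakly related. The Spearman correlation over the 10325 mRNAs was 0.10 and the Pearson correlation of the log2 values was 0.15. Both measures share the control libraries, whether reads were averaged over all libraries or only over those behind the half-lives. The mRNAs are also not independent. Little of this relation was present among mRNAs with fewer reads. Over the 8260 mRNAs that remain when the 2065 with the most reads are left out, and whose average reads ran from 108 to 1484, the Spearman correlation was 0.025. Within the 2065 left out it was 0.20, and the Pearson correlation of log2 values was 0.27.

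The mRNAs were then divided by read number into 5 groups of 2065, numbered from the fewest reads (group 1) to the most (group 5). The median half-life was 171 min in group 1, 169.9 min in group 2, 173 min in group 3 and 174 min in group 4. In group 5, with at least 1484 average reads, it was 196 min. The difference in median log2 half-life between group 5 and group 1 was 0.20, or 1.15-fold. It was 0.13 with half-lives limited to 1 to 24 h, and 0.33 between the last and first of 10 groups, so its size depends on these choices. Within groups 1 to 4 the Spearman correlations of half-life and read number were 0.04, -0.03, 0.01 and 0.02. Reads spanned a narrow range within these groups, such as 285 to 477 in group 2, against 1484 to 289411 in group 5. A narrow range limits such a correlation. By the medians, half-life was level over the lower groups and higher only in the one with the most reads.

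In 20 groups of 516 or 517 mRNAs the first 18 groups, which reach 2552 average reads, had medians between 164 and 181 min. The highest of these were in the last 3 of them, from 1229 average reads upward, at 178, 181 and 180.5 min, and the others were at most 176 min. The next group, up to 4199 reads, had a median of 197 min, and the last, from 4208 reads upward, had one of 235 min. The last group was 1.43-fold above the first and 1.20-fold above the one before it. The quartiles of the last group, 167 and 387 min, overlapped those of the first, 102 and 261 min.

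**Figure D3:**
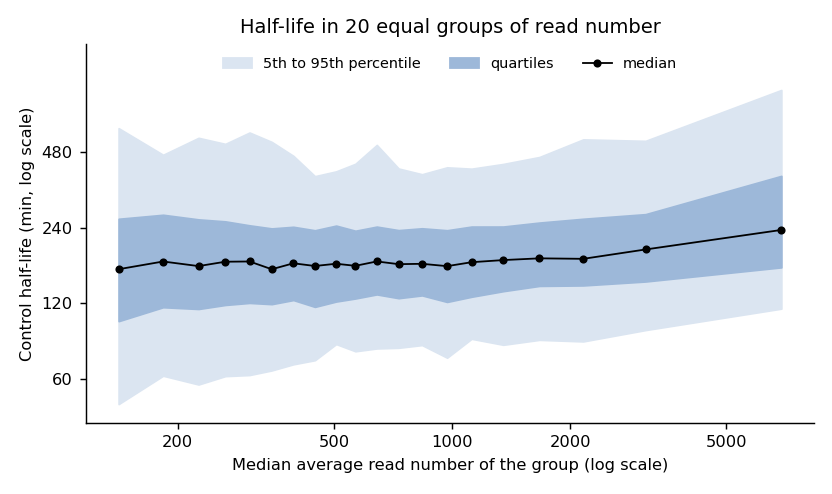
Control half-life in minutes on a log scale (y axis) against the median of average reads (x axis, log scale) in 20 groups of equal size. Points are group medians, the dark band spans the quartiles and the light band the 5th to 95th percentiles; the medians stay between 164 and 181 min over the first 18 groups and reach 235 min in the last.

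The tails changed with read number more than the centre did. Short-lived mRNAs became rarer from group to group, at 28.6%, 25.1%, 22.0%, 20.7% and 12.7% of groups 1 to 5. Half-lives under 1 h fell in the same order, from 123 mRNAs (5.96%) in group 1 to 20 mRNAs (0.969%) in group 5. Long-lived mRNAs did not follow one direction. Their share was 5.91%, 5.38%, 3.97% and 3.34% in groups 1 to 4 and 8.23% in group 5. In 20 groups, the share of short-lived mRNAs was 32.9% in the first and 6.20% in the last, and that of long-lived mRNAs was 6.58% and 15.7%. The last was the one group of 20 in which long-lived mRNAs outnumbered short-lived ones, 81 against 32.

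**Figure D4:**
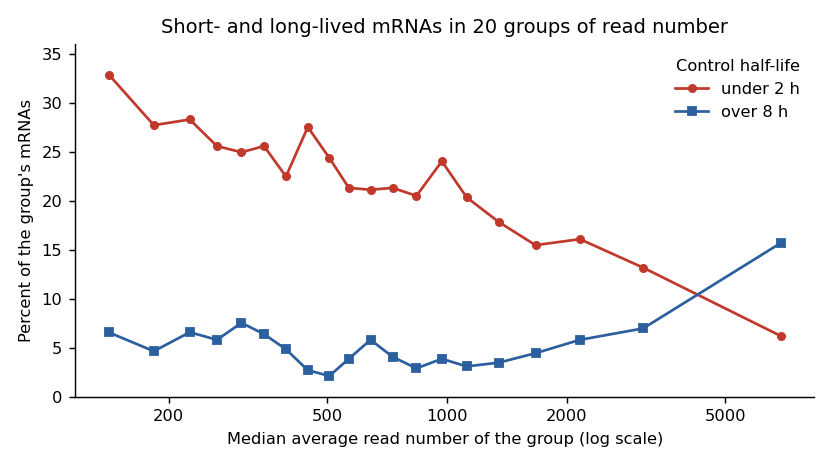
Percent of mRNAs (y axis) with control half-lives under 2 h (red circles) and over 8 h (blue squares) in 20 groups of equal size, placed at the median of their average reads (x axis, log scale). The red line falls from 32.9% to 6.20%, and the blue line is lowest, 2.13%, in the ninth group and reaches 15.7% in the last.

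The spread of half-lives narrowed from group 1 to group 4 and widened again in group 5. The SD of log2 half-lives over mRNAs was 0.97, 0.86, 0.77, 0.74 and 0.83 in groups 1 to 5. The 5th percentile rose throughout, from 56.7 min in group 1 to 91.4 min in group 5, whereas the 95th fell from 526 min in group 1 to 412 min in group 4 and was 610 min in group 5. The ratio of the SD in group 5 to that in group 1 was 0.86, but it became 1.14 when only the 5995 mRNAs with at least 500 average reads were divided in the same way, so the sign of the change in spread depends on the range of reads compared. The error of each fitted half-life is not part of the table, and its part in the wider spread at low read numbers was not tested.

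Median half-life rose along lists of the mRNAs with the most reads. Median half-lives were 182 min in the 5000 mRNAs with the most reads, 197 min in the top 2000, 214 min in the top 1000, 234 min in the top 500, 270.5 min in the top 200 and 352 min in the top 100. These lists are nested, and the share of long-lived mRNAs rose along them from 5.60% in the top 5000 to 33.0% in the top 100. In the top 100, which took 23.7% of all reads, 82 half-lives were above the median of all mRNAs and 5 were under 2 h. Values within this list still ranged from 69.0 to 2013 min, with quartiles of 199.9 and 580 min.

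The 10 mRNAs with the most reads ranged from 153 to 1306 min. The mRNA with the most reads, 289411 on average or 1.98% of all reads, had a half-life of 903 min. The next, with 171624 average reads, had one of 216 min, and the third, with 132351, one of 294 min. Of the 10, 5 were long-lived, none was short-lived and 9 were above the median of all mRNAs. Even at this end, neighbours in read number differed severalfold in half-life.

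Weighting each mRNA by its reads gave the distribution of half-lives over the read pool, which has no single half-life. The read-weighted median was 212 min, 1.20 times the unweighted median of 177 min, with read-weighted quartiles of 151 and 347 min against 127 and 253 min unweighted. The difference was larger in the upper tail. The 90th percentile was 642 min with weights and 373 min without, and the 10th was 110 min with weights and 90.3 min without. The read-weighted mean was 307 min, 1.40 times the unweighted 219 min. The read-weighted harmonic mean, which follows from the mean decay rate constant and gives the initial rate of loss of the pool, was 192 min, 1.25 times the unweighted 154 min.

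A small number of mRNAs carried much of this weighting. Without the mRNA with the most reads, the read-weighted median was 209 min and the read-weighted mean 294 min. Without the 100 mRNAs with the most reads, the read-weighted median was 191 min and the read-weighted mean 243 min, both closer to the unweighted values over all mRNAs but still above them.

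The half-lives were also turned into the percent of label left at each chase time, by simple exponential decay. These are calculated values and not the measured conversion fractions. At 4 h, 39.7% of the label would be left on average over mRNAs and 47.5% in the read-weighted pool. At 8 h the values were 19.1% and 26.5%, and at 24 h they were 2.61% and 5.89%. A single mRNA with the median half-life would keep 39.0% at 4 h, 15.2% at 8 h and 0.354% at 24 h. The mean over mRNAs and the pool therefore lost label more slowly at late times than that mRNA would.

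The share of the left label on long-lived mRNAs rose with chase time and exceeded 50% at 24 h. At 1 h they held 17.6% of the label left in the read-weighted pool, at 8 h 36.8% and at 24 h 73.2%. Short-lived mRNAs held 9.87% at 1 h, 4.50% at 4 h and 1.53% at 8 h. At 4 h, 7459 mRNAs (72.2%) would have lost more than 50% of their label, and at 8 h 9771 mRNAs (94.6%). By this calculation, most mRNAs would thus lose the greater part of their label by 8 h. Most of the label left at 24 h would be on long-lived mRNAs. How much each chase time contributed to the fits was not tested.

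**Figure D5:**
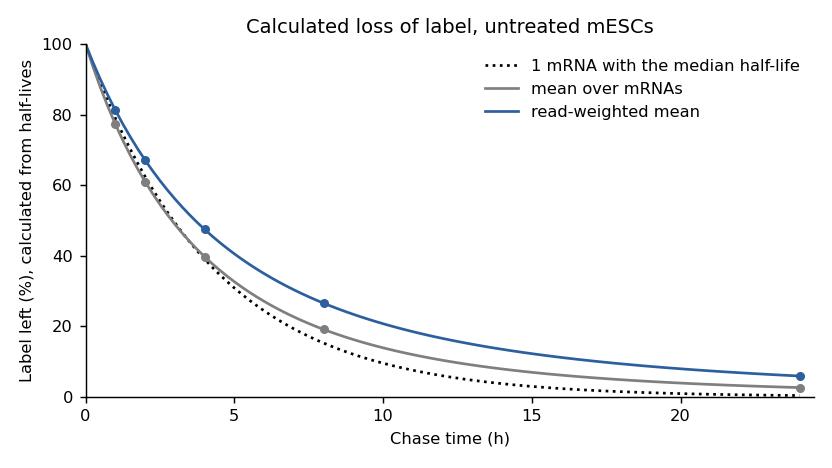
Percent of label left (y axis) over chase time in hours (x axis), calculated from the control half-lives for 1 mRNA with the median half-life (dotted), as the mean over 10325 mRNAs (grey) and as the read-weighted mean (blue), with points at the chase times after 0 h. At 8 h the 3 curves are at 15.2%, 19.1% and 26.5%.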

How the data were processed

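Paired-end reads were aligned by the authors with Bowtie2 to the mouse transcriptome (mm10). The submitters' processing notes also name GRCm39, with no role given, and a Bowtie2 version is not given in the sources used here. Half-lives were estimated by the authors from the decline of converted reads during the chase, under a model of exponential decay. Each mRNA has, as deposited, 1 half-life per condition in minutes and an average read number. How replicates were combined, any filter on reads or fits, and any correction for dilution of label by cell growth are not given in the sources used here. Growth that is not corrected for would shorten every listed half-life. Read averages multiplied by 36 were whole, within 0.02 reads, for 100% of mRNAs (33.4% for 12), and were read as means over all 36 libraries. The authors tie these averages to the reads used for the half-lives and count the samples differently, so this reading is not settled. They add up to 14634046 reads per library. Depths of single libraries, and so precision per half-life, are unknown.

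Percentiles, classes limited by chase times, rank correlations and read-weighted means were computed, as were groups of equal size by read number (ties ordered by identifier). The software was scipy 1.17.1, numpy 2.4.6 and pandas 2.3.3 in python 3.11.15, with figures drawn in matplotlib 3.10.9. The median, the correlations and the difference between groups were checked on simulated data. Read-weighted averages and label left were checked on a small made-up example. The classes and the ratio of SDs were not checked in this way. No test was run, since there is 1 half-life per mRNA. The 2 columns of treated half-lives were not read. Identifiers named were the 2 shortest-lived and 2 longest-lived mRNAs with half-lives from 1 to 24 h among the 2065 with the most reads. Lists of pluripotency, labile, ribosomal protein, glycolysis, cytoskeleton and feeder cell genes were not used, because 0 identifiers matched the annotation. The mRNAs, limits and groupings were chosen with earlier results of these data known. Alternatives covered minimum reads, limits on half-lives, the most-read mRNAs, duplicate rows, group number and the type of average.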

Additional observations from a re-analysis of the deposited data

How the results depend on the processing

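Of 55 alternatives, 52 were chosen with earlier results known and 3 after seeing the data. In 8 of them, which drop repeated mRNAs, none was found to drop, so these tested nothing. Of the other 47, 23 left the value within set limits. These were its 95% interval over mRNAs (median half-life, shares, correlation), 5%, or, for differences in log2, 0.05. The intervals treat mRNAs as independent, which they are not, so they serve only as a yardstick. Another 23 gave values outside these limits in the same direction and 1 turned the direction. Medians, shares and label left are always positive, so they could not turn. Only the correlation, the log2 difference and the ratio of SDs could. With at least 500 average reads, the median half-life was 181 min, short-lived mRNAs 18.3%, the Spearman correlation with reads 0.15, and the log2 difference between the groups with the most and fewest reads 0.28. The ratio of their SDs turned from 0.86 to 1.14, and this minimum leaves out all of groups 1 and 2. With half-lives from 1 to 24 h these were 179.7 min, 19.7%, 0.076, 0.13 and 0.91. Other limits gave 9.48% (over 2-fold below the median) and 2.69% (under 1 h) short-lived mRNAs, and 11.5% (over 2-fold above the median) and 0.194% (over 24 h) long-lived ones. The geometric mean was 182 min. The Pearson correlation of log2 values was 0.15, and without the most-read group the Spearman correlation was 0.025. With 10 groups the log2 difference was 0.33, and with interquartile ranges the ratio of spreads was 0.78. In place of a read-weighted median of 212 min, the weighted mean was 307 min, the weighted harmonic mean 192 min, the median weighted by log2 reads 178 min, and the median without the 100 most-read mRNAs 191 min. Without these, label left at 4 h was 42.8%. Except for the limits, the averages and the dropped mRNAs, which differ by construction, the cause was not tested for these changes.

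No paired analysis was possible because replicates are already combined in the table, which also kept single replicates from being left out. The precision of a single half-life at a given number of reads is unknown; half-lives under 1 h had a median of 316 average reads.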
